A study of Zea mays with 24 samples.

Results

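Transcript levels of 8 maize nitrate transporters were followed in source leaves under low night temperature, low nitrogen and low phosphorus supply. The 8 transcripts are all those that the study's own annotation of primary metabolism lists under nitrate transport. They were looked up by probe name among the 41780 transcript probes of a custom Agilent maize array, and each was taken from the 1 probe listed there. All 24 arrays hold mid-lamina tissue of the inbred line B73, grown in nutrient-poor peat soil with days of 28°C, 14 h of light and 10 h of dark. Control T and low T plants received 15 mM KNO3 and 0.5 mM KH2PO4, had nights of 20°C (control T) or 4°C (low T), and leaf 5 was sampled at day 20 after germination. Control N, low N, control P and low P plants had nights of 20°C, and leaf 6 was sampled at day 30. Both nutrient controls received the same solution as control T, low N plants received 0.15 mM KNO3 with 0.5 mM KH2PO4, and low P plants received 0.1 mM KH2PO4 with 15 mM KNO3. Every group has 4 samples, described in the Methods as biological replicates. Control T and low T plants stood in 2 different climate chambers, so that chamber and treatment cannot be told apart in this experiment.

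Nitrate taken up by roots travels in the xylem to the leaf, where it crosses membranes through carriers of the NRT1 and NRT2 families before nitrate reductase in the cytosol and nitrite reductase in the chloroplast turn it into ammonium. Work in Arabidopsis established NRT1.1 (CHL1) as a carrier that works at both high and low external nitrate and also senses nitrate, and NRT1.5 as a carrier that releases nitrate to the xylem for transport to the shoot. Transcripts of this pathway, nitrate reductase first among them, are known to follow nitrate supply.

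By the descriptions in the annotation, 3 members are of the NRT1.1 (CHL1) type, at the loci GRMZM2G086496 (probe OptiV1C03501), GRMZM2G161459 (OptiV1C13861) and GRMZM2G112154 (OptiV1S18991). Of the others, GRMZM2G150468 (OptiV1S26259) is listed as a low affinity nitrate transporter, GRMZM2G137421 (OptiV1C13689) as a member of low-affinity nitrate uptake and GRMZM2G044851 (OptiV1C13647) as nitrate transporter 1.5-like. The remaining loci are listed as high affinity transporters, GRMZM2G455124 (OptiV1C14902) as a family member and GRMZM2G163494 (OptiV1S24748) as a transporter. None of the roles was tested in these leaves.

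Levels are given as log2 of the background-corrected signal minus the 75th percentile of the array, so that 0 is the level of a rather bright probe and a step of 1 is a doubling. They can be compared between samples for 1 probe, not between probes. All 8 members were well above background on all 24 arrays, as were 24236 of all probes, and 31507 probes passed the filter for testing. Between 25780 and 36966 probes were well above background per array. The leaf markers fitted the labelled tissue, with 15 of 15 photosystem I, 11 of 11 photosystem II and 18 of 18 C4 shuttle transcripts well above background on every array. Levels of a list were summed before log2 was taken, so that its brightest probes weigh most. The summed C4 shuttle level did not overlap between stress and control in any experiment. It lay between 9.96 and 10.29 in low T against 10.30 to 10.61 in control T, between 9.37 and 9.67 in low N against 9.98 to 10.28 in control N, and between 9.30 and 9.62 in low P against 9.64 to 10.10 in control P. Of the 18 transcripts, 0 were called under low T, 3 lower under low N and 3 lower under low P, by the limits given below. Of all tested probes, 14.4%, 5.80% and 11.2% were called in either direction. The photosystem sums were apart only in the low temperature experiment, at 11.30 to 11.82 in low T against 11.95 to 12.52 in control T for photosystem I, and with all low T arrays below the control T range of 11.88 to 12.36 for photosystem II. Under low T 3 photosystem I transcripts were called lower, and 0 of photosystem II were called. Under low P 2 of photosystem II were called higher, and under low N 0 of either list were called. For the 5 maize senescence markers, of which 3 were well above background on every array and the others on part of them, the summed level was 5.08 to 5.49 in low T against 4.53 to 4.86 in control T. It was 3.20 to 3.79 in low N against 2.54 to 3.76 in control N, and 3.05 to 3.75 in low P against 2.24 to 3.14 in control P. The markers did not all move alike under low T, where 1 was called higher and 1 lower. Under low N 1 was called higher, and under low P 2 were called higher. Whether these shifts had a part in the transporter values was not tested. In mid-lamina tissue, fewer cells of a type and less RNA per cell cannot be told apart.

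Nitrate transporter transcripts mostly lay lower under stress where they changed, with 1 large exception under low P. A change counted as called when it exceeded a factor of 2 against the experiment's own control with an adjusted p under 0.05. Under low T 2 of 8 members were called, both lower, while 14.4% of all tested probes were called in either direction and 7.12% lower. Low N gave 4 of 8, all lower, against 5.80% of all probes in either direction and 3.12% lower. Under low P 3 of 8 were called, 2 lower and 1 higher, against 11.2% of all probes in either direction, 3.01% lower and 8.21% higher. The median log2 change over the 8 members was -0.39 under low T, -0.78 under low N and -0.27 under low P, and over all tested probes it was -0.07, -0.04 and 0.03. GRMZM2G044851 alone was called under all 3 stresses, 2 members were called under 2 stresses, 2 members under 1 stress and 3 members under none. Stress and control arrays did not overlap for 2 members under low T, 4 under low N and 5 under low P, a pattern that 35.3%, 21.4% and 42.5% of all tested probes showed in the same experiments.

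**Figure D1:**
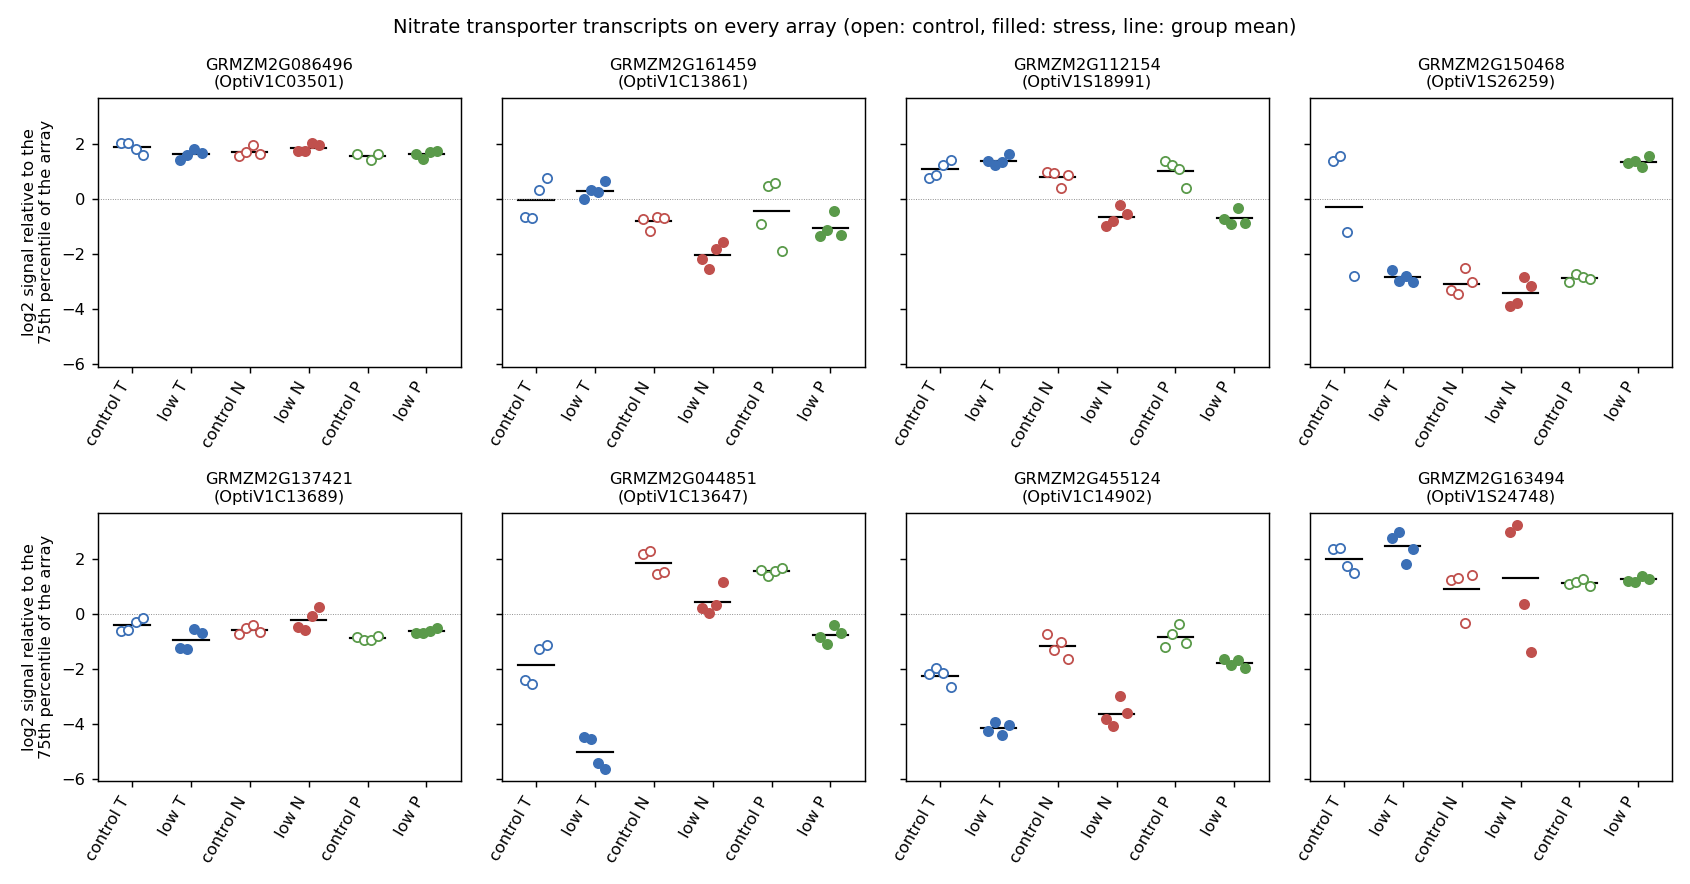
Log2 signal (y axis, with 0 at the array's 75th percentile) for each nitrate transporter in the 6 groups (x axis), with open points for control arrays, filled points for stress arrays and a line at the group mean. GRMZM2G044851 and GRMZM2G455124 lie lower in each stress group than in its own control, and GRMZM2G150468 is high in low P and on part of the control T arrays.

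**Figure D2:**
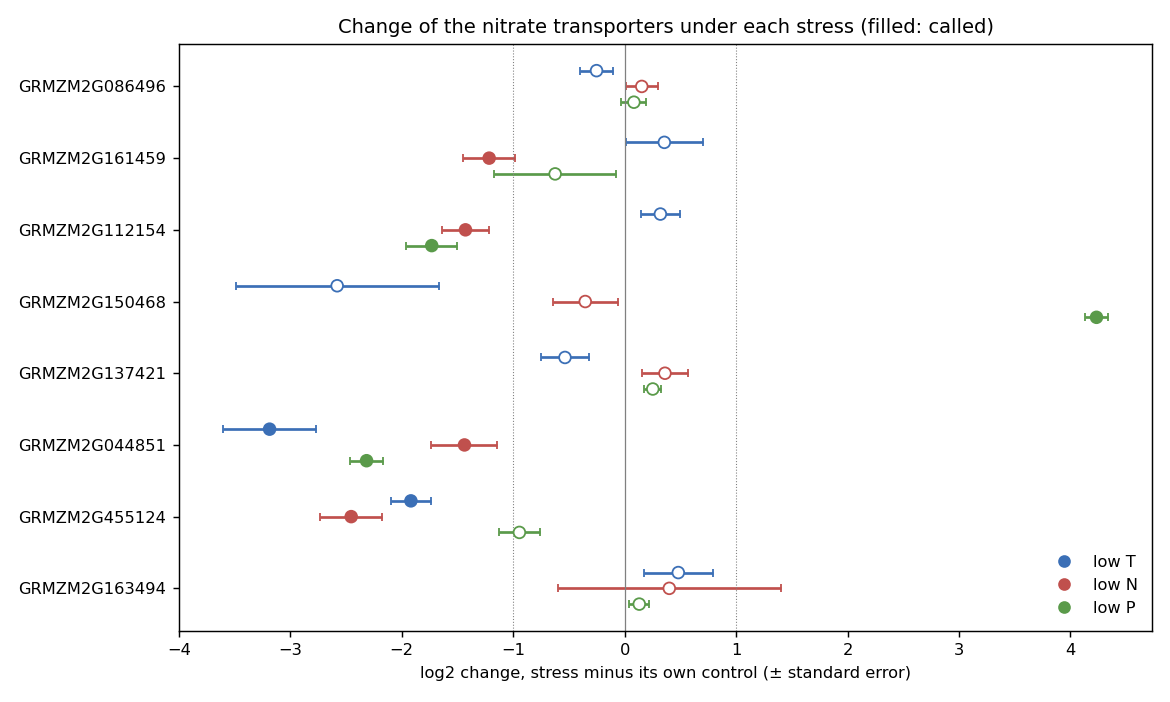
Log2 change of each nitrate transporter against its own control (x axis, with the standard error as bars) under low T, low N and low P, with filled points where the change was called and dotted lines at a fold change of 2. The change of GRMZM2G150468 under low P, 4.23, is the only called point above 0.

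Among the NRT1.1 types, GRMZM2G112154 fell under both nutrient stresses. Its levels were 0.98, 0.95, 0.39 and 0.87 in control N and -0.99, -0.80, -0.20 and -0.54 in low N. In control P they were 1.40, 1.25, 1.09 and 0.40, and in low P -0.71, -0.91, -0.32 and -0.86. No low N or low P array reached the lowest array of its control. The log2 change was -1.43 ± 0.21 (SE, adjusted p = 0.00613) under low N, which is 2.69-fold lower, and -1.73 ± 0.23 (adjusted p = 0.000796) under low P, which is 3.32-fold lower. Within slide 4, the only slide with both groups (1 control N and 2 low N arrays), the low N change was -0.76, and with slide as a random block it was -1.04 (adjusted p = 0.0104). In control T the levels of GRMZM2G112154 were 0.78, 0.90, 1.26 and 1.41, and in low T 1.39, 1.26, 1.34 and 1.63. These arrays overlapped, and the change of 0.32 ± 0.17 did not pass (adjusted p = 0.193). Ordered by mean, the group levels ran from low T over the 3 controls to low N and low P, and the only gap without overlap lay between control N and low N. With the spike-in scalings, which moved the median of all probes under low N by 0.53 or more, the low N change of this locus was -0.90 or -0.86 and was no longer called.

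GRMZM2G161459, also of the NRT1.1 type, was called under low N only, and its arrays scattered in the controls of the other experiments. The levels were -0.72, -1.16, -0.65 and -0.69 in control N and -2.18, -2.54, -1.83 and -1.54 in low N. These groups did not overlap, and the change was -1.22 ± 0.23 (adjusted p = 0.0161), or 2.32-fold lower. Within slide 4 the change was -1.03. Without low N replicate 1 it was -1.16 with an adjusted p of 0.0528, and it was -0.68 and -0.64 with the spike-in scalings, not called in any of these. In control P the levels were -0.90, 0.50, 0.60 and -1.88, a 5.57-fold span, and the low P arrays at -1.33, -1.13, -0.42 and -1.30 lay within it. The change under low P was -0.62 ± 0.55 (adjusted p = 0.390), which this spread could not separate from 0. In control T the levels of -0.63 and -0.67 were those of slide 1 and the levels of 0.35 and 0.79 those of slide 2, while the low T levels were 0.01, 0.35, 0.26 and 0.65. Low T minus control T was therefore 0.83 within slide 1 and -0.12 within slide 2, and the overall change of 0.36 did not pass (adjusted p = 0.455).

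The third NRT1.1 type, GRMZM2G086496, was the steadiest of the 8. All its values lay between 1.42 and 2.06, the group means between 1.57 and 1.89, and neighbouring groups overlapped at every step of their order. The changes were -0.25 ± 0.15 under low T (adjusted p = 0.220), 0.15 ± 0.14 under low N (adjusted p = 0.540) and 0.08 ± 0.11 under low P (adjusted p = 0.588). For control P 3 arrays entered, because the spot of replicate 2 carried an outlier flag and was left out. Its scanner signal was 23900, against 2660, 1870 and 2470 on the other control P arrays.

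The low affinity transporter GRMZM2G150468 showed the largest change among the members. Its levels in control P were -3.01, -2.73, -2.84 and -2.89, and in low P 1.32, 1.40, 1.19 and 1.56. Each group was tight and they lay far apart, with a log2 change of 4.23 ± 0.11 (adjusted p = 1.09e-06), or 18.8-fold higher. In the scanner signal this was 97.7 to 114 in control P and 1890 to 2610 in low P. Slide 7 carried the 4 control P arrays and slide 8 the 4 low P arrays, so that slide and treatment cannot be told apart for any low P value. In control N the same probe read -3.29, -3.45, -2.52 and -3.01, and in low N -3.89, -3.79, -2.84 and -3.18. These groups overlapped, with a change of -0.35 ± 0.29 (adjusted p = 0.480).

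In the low temperature experiment GRMZM2G150468 split by slide. Control T replicates 1 and 2, on slide 1, were at 1.39 and 1.56, a level like that of low P, whereas replicates 3 and 4, on slide 2, were at -1.21 and -2.80. The low T arrays lay together at -2.57, -2.99, -2.81 and -3.0, so that control T replicate 4 was within their range. Low T minus control T was -2.58 ± 0.91 and was not called (adjusted p = 0.0626). It was -4.26 within slide 1 and -0.90 within slide 2. The call depended on the fit, with an adjusted p of 0.0229 with slide as a block, 0.00202 in 1 fit over all 24 arrays, 0.0483 with only the probes well above background on all arrays, and 0.00693 with a change of -3.42 without control T replicate 4. Low T and low N were grown in 2 successive sets, and the labels do not say which set an array belongs to.

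GRMZM2G137421, of low-affinity nitrate uptake, was called under no stress. Its levels in control P, -0.83, -0.94, -0.95 and -0.80, and in low P, -0.68, -0.68, -0.63 and -0.53, did not overlap. The change of 0.25 ± 0.08 had an adjusted p of 0.0331 but stayed below the fold limit, being 1.19-fold. Under low T the change was -0.54 ± 0.21 (adjusted p = 0.0874). With the replicate number or the slide as a block its adjusted p was 0.0249 or 0.00477, still below the fold limit, and with spike-in scaling the change was -0.10 (adjusted p = 0.825). Under low N it was 0.36 ± 0.21 (adjusted p = 0.298). Over all 24 arrays its values stayed between -1.29 and 0.27.

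The transcript described as nitrate transporter 1.5-like, GRMZM2G044851, fell under each stress. Its levels in control T were -2.40, -2.55, -1.29 and -1.13, and in low T -4.48, -4.54, -5.44 and -5.66. Every low T array was below every control T array. The log2 change was -3.19 ± 0.42 (adjusted p = 0.00132), or 9.10-fold lower, and it was -2.04 within slide 1 and -4.34 within slide 2. The low T signals were dim, 13.8 to 35.9 in scanner units against 112 to 281 in control T. With the normexp background correction, which adds an offset of 50, the change was -1.64 (adjusted p = 0.0292) and still called.

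Under the nutrient stresses GRMZM2G044851 started from a higher control level. In control P it was at 1.59, 1.39, 1.58 and 1.66, and in low P at -0.84, -1.09, -0.41 and -0.71. These groups stood apart, with a change of -2.32 ± 0.15 (adjusted p = 2.55e-05), or 4.98-fold lower. In control N it was at 2.19, 2.29, 1.47 and 1.52, and in low N at 0.20, 0.03, 0.34 and 1.15. The groups did not overlap, but low N replicate 4 came near to the lowest control N array. The change was -1.44 ± 0.30 (adjusted p = 0.0204), or 2.71-fold lower, and within slide 4, with 1 control N and 2 low N arrays, it was -0.73. This call was lost with the replicate number as a block (adjusted p = 0.0502), with the spike-in scalings (-0.91 and -0.87), and without any of control N replicate 1, control N replicate 2, low N replicate 1 and low N replicate 2, for which the adjusted p was 0.0535, 0.0502, 0.0624 and 0.0612.

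A second probe of the same locus, OptiV1C14037, comes from another list of the study that holds transcripts called there. It is given as a description only. Its log2 change was -2.98 under low T, -1.39 under low N and -2.33 under low P. Over the 24 arrays the largest gap between the values of both probes was 0.48 and the median gap 0.05.

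Of the high affinity types, GRMZM2G455124 was lower in each stress group than in its control and was called under low T and low N. Its levels in control T were -2.19, -1.99, -2.14 and -2.66, and in low T -4.26, -3.94, -4.41 and -4.04. In control N they were -0.72, -1.31, -1.04 and -1.63, and in low N -3.81, -4.09, -3.0 and -3.61. Neither pair of groups overlapped. The change was -1.92 ± 0.18 under low T (adjusted p = 0.000398), or 3.78-fold lower, and -2.45 ± 0.28 under low N (adjusted p = 0.00212), or 5.48-fold lower. Within the slides that held both groups it was -2.01 and -1.83 under low T and -2.27 under low N. With normexp the low T change was -0.98 and no longer called (adjusted p = 0.169), in a group whose scanner signals were at most 50.8.

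Under low P GRMZM2G455124 was at -1.64, -1.87, -1.67 and -1.97, against -1.21, -0.74, -0.36 and -1.06 in control P. The groups did not overlap, and the change of -0.94 ± 0.19 had an adjusted p of 0.00498 but, at 1.92-fold, lay just below the fold limit. It passed that limit with quantile normalization (-1.02) and without control P replicate 1 (-1.07) or replicate 4 (-1.02), and moved away from it with normexp (-0.81), with spike-in scaling (-0.71, adjusted p = 0.0476) and without control P replicate 3 (-0.78). With the restricted spike-in scaling it was -0.43 and no longer passed the p limit (adjusted p = 0.124). Ordered by mean, its levels ran from control P and control N, which overlapped, over low P and control T to low N and low T, which also overlapped.

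GRMZM2G163494, listed as a high-affinity nitrate transporter, was called under no stress and was the member with the widest spread inside a group. In low N replicates 1 and 2, on slide 6, were at 2.99 and 3.25, while replicates 3 and 4, on slide 4, were at 0.37 and -1.37, a 24.5-fold span. In control N the levels were 1.23, 1.32, -0.34 and 1.42, and replicate 3, the low value, was the control array on slide 4. The change under low N, 0.40 ± 1.00 (adjusted p = 0.835), had no settled direction, since it was -0.16 within slide 4 and ran from -0.25 to 1.29 when single arrays were left out. In the low P experiment the same probe was tight, at 1.09, 1.17, 1.26 and 1.02 in control P and 1.21, 1.18, 1.40 and 1.27 in low P. The change there was 0.13 ± 0.09 (adjusted p = 0.265). In control T it was at 2.37, 2.41, 1.74 and 1.50 and in low T at 2.78, 2.98, 1.82 and 2.37, with a change of 0.48 ± 0.31 (adjusted p = 0.263) and nearly the same value within both slides, 0.49 and 0.47.

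**Figure D3:**
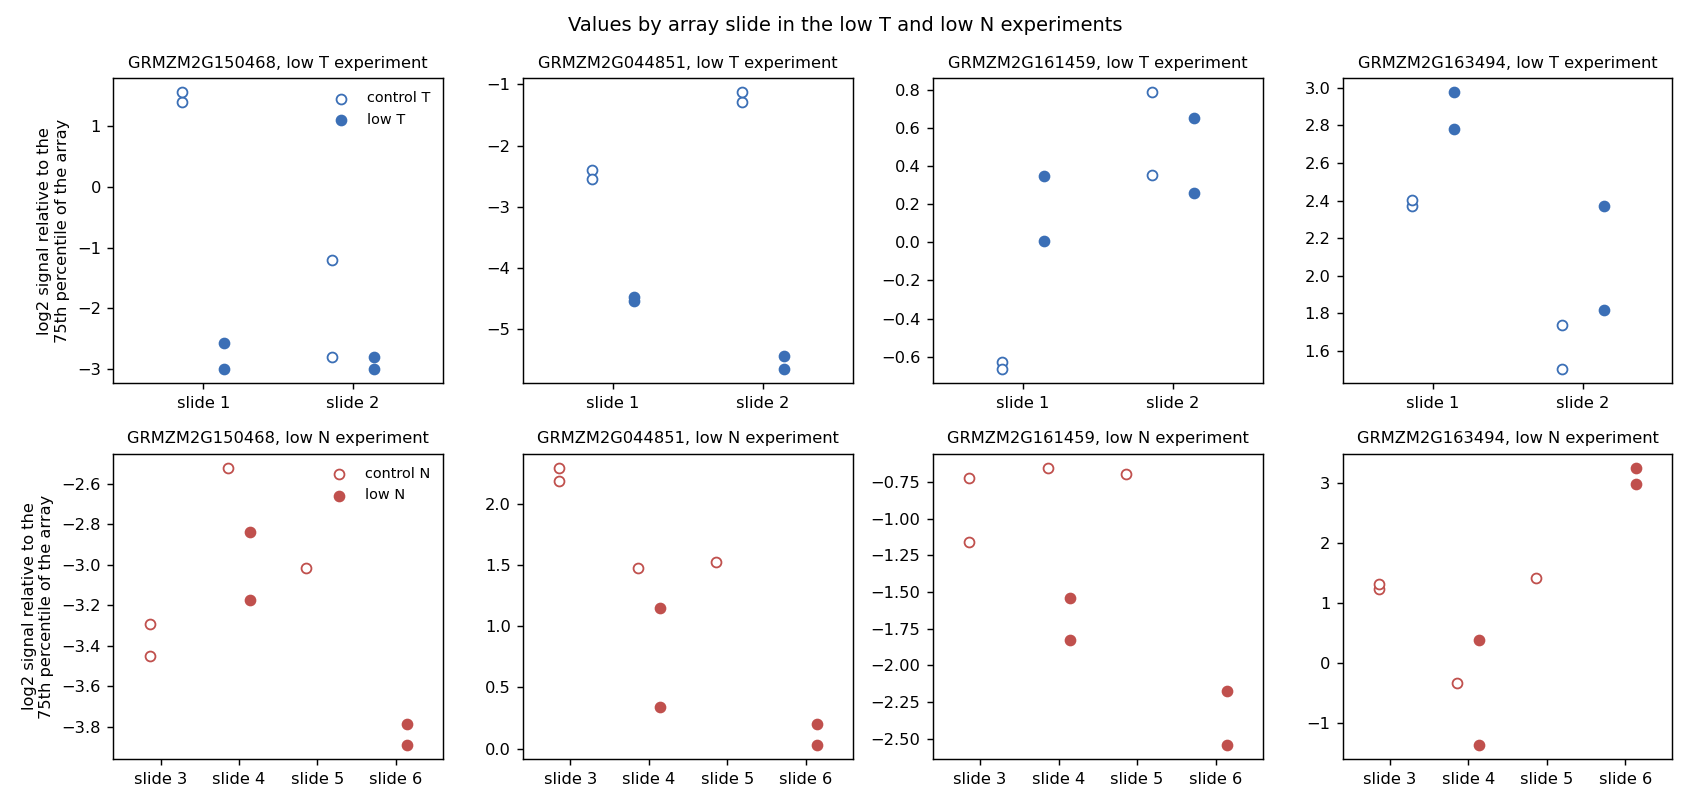
Log2 signal (y axis, with 0 at the array's 75th percentile and a scale of its own per panel) by array slide (x axis) for 4 nitrate transporters in the low T and low N experiments, with open points for control and filled points for stress arrays. GRMZM2G150468 in control T and GRMZM2G163494 in low N differ more between slides than within them.

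In the controls, 3 members were called between the low temperature experiment and the nutrient experiments, GRMZM2G150468 with overlapping arrays. These comparisons set leaf 5 at day 20 against leaf 6 at day 30, and the leaf, its age, the chamber, its light, the slides and the experiment cannot be told apart in them. GRMZM2G044851 was higher in control N than in control T by 3.71 ± 0.33 on the log2 scale (adjusted p = 7.34e-08), or 13.1-fold, and in control P by 3.40 ± 0.33 (adjusted p = 2.25e-07), or 10.5-fold. GRMZM2G455124 was higher by 1.07 ± 0.23 (adjusted p = 0.000879) and 1.40 ± 0.23 (adjusted p = 6.23e-05). GRMZM2G150468 was lower, by -2.80 ± 0.61 (adjusted p = 0.000943) and -2.60 ± 0.61 (adjusted p = 0.00161), with the control T spread given above. Its SD was 2.11 in control T against 0.41 in control N and 0.12 in control P. Control T replicate 4 lay within the range of both nutrient controls. The SE and p rest on a variance pooled over the 6 groups, so that they do not measure the control T spread. Thus 3 of 8 members were called in control N against control T, where 16.3% of all probes were, and 3 of 8 in control P against control T, where 18.8% were. Between control P and control N, grown on the same solution, 0 of 8 members were called against 0.743% of all probes, the member differences ran from -0.31 to 0.39, and 0 of them had an unadjusted p under 0.05 in this limma fit. The control N difference of GRMZM2G455124 fell below the fold limit without control T replicate 4 (0.93) or control N replicate 1 (0.92), with the spike-in scalings (0.75 and 0.63) and with normexp (0.48), and normexp also took its control P difference below that limit (0.85).

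The responses to the stresses were set against each other by interaction terms fitted to the 24 arrays together, called at an adjusted p under 0.05. Low T and low N responses differed for 3 of 8 members, against 22.5% of all probes. Low T and low P responses differed for 4 of 8, against 39.0% of all probes, and low N and low P responses for 2 of 8, against 19.9%. GRMZM2G112154 responded higher under low T than under low N by 1.75 ± 0.30 (adjusted p = 0.000375) and than under low P by 2.05 ± 0.30 (adjusted p = 2.48e-05), while its low N and low P responses differed by 0.30 ± 0.30 (adjusted p = 0.521). GRMZM2G150468 responded lower under low T than under low P by -6.81 ± 0.86 (adjusted p = 4.07e-06), and lower under low N than under low P by -4.59 ± 0.86 (adjusted p = 0.000752). Both SEs rest on a variance pooled over the 6 groups, of which control T had by far the largest spread at this locus (SD 2.11). The low T contrast holds the control T arrays, and its SE does not measure their spread. The low N minus low P contrast holds no control T array, yet its SE takes in that spread. In the separate fits the SE was 0.29 for low N and 0.11 for low P. GRMZM2G455124 responded lower under low N than under low P by -1.51 ± 0.32 (adjusted p = 0.00247) and under low T than under low P by -0.97 ± 0.32 (adjusted p = 0.0219).

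For GRMZM2G044851 the low T response was lower than the low N response by -1.75 ± 0.47 (adjusted p = 0.0105), and its differences from the low P response did not pass, at -0.87 for low T (adjusted p = 0.148) and 0.88 for low N (adjusted p = 0.196). GRMZM2G137421, called under no single stress, responded lower under low T than under low N by -0.90 ± 0.25 (adjusted p = 0.0145) and than under low P by -0.79 ± 0.25 (adjusted p = 0.0181). With normexp the differences of GRMZM2G044851 (-0.30), GRMZM2G137421 (-0.81 and -0.62) and GRMZM2G455124 (-0.93 and -0.17) were no longer called, and with spike-in scaling those of GRMZM2G137421 (-0.99 and -0.58) and GRMZM2G455124 (-1.21 and -0.77). Without control P replicate 1 the low T minus low P difference of GRMZM2G455124 had an adjusted p of 0.0521.

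Downstream of transport, transcripts of nitrate reduction were all called under low N and low P and in part under low T, and those of ammonium assimilation were mostly not called. Of the 6 transcripts listed under nitrate reduction, 2 were called under low T, 6 under low N and 6 under low P, all lower. Their median log2 change was -0.85, -3.13 and -1.86 in that order. The nitrate reductase loci GRMZM2G076723 and GRMZM2G142386 were called under all 3 stresses, at -1.19 and -1.20 under low T, -3.01 and -3.11 under low N, and -1.20 and -1.17 under low P. In the GS/GOGAT cycle glutamine synthetase and glutamate synthase bind ammonium into amino acids. Of its 7 transcripts, 2 were called higher under low T, 0 were called under low N by limma (2 at an unadjusted p under 0.05) and 1 was called lower under low P. Medians were 0.18, -0.14 and -0.21. Of all tested probes, 14.4%, 5.80% and 11.2% were called in either direction. Below the fold limit, GRMZM2G098290 under low T (0.71, adjusted p = 0.0133) passed the p limit. Under low N GRMZM2G036609 (-0.55, adjusted p = 0.0285) and GRMZM2G085078 (0.70, adjusted p = 0.0167) did. Under low P GRMZM2G024104 (-0.42), GRMZM2G036464 (-0.40) and GRMZM2G085078 (0.54) did. The 8 transporters spread wider than either list, from -3.19 to 0.48 under low T, from -2.45 to 0.40 under low N and from -2.32 to 4.23 under low P.

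**Figure D4:**
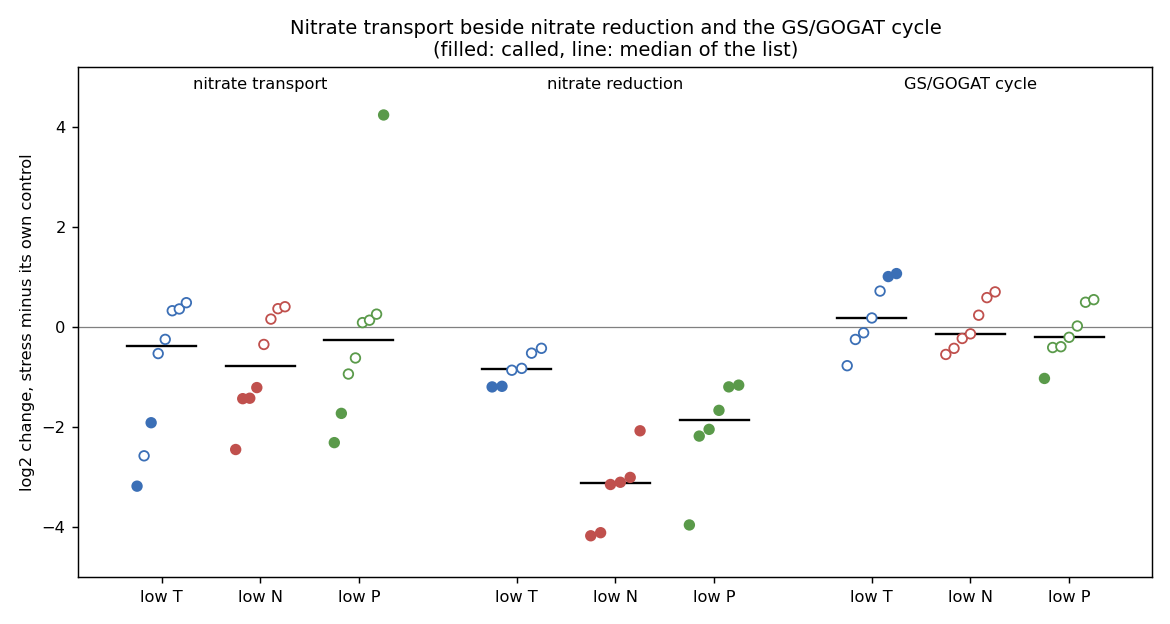
Log2 change against the own control (y axis) of each transcript of nitrate transport, nitrate reduction and the GS/GOGAT cycle under low T, low N and low P (x axis), with filled points where the change was called and a line at the median of the list. All nitrate reduction points lie below 0, whereas the nitrate transport points spread on both sides of 0 in each stress.

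The values of the transporters were also set against each other over the arrays. Centring on the mean of an experiment keeps the difference between stress and control, so that r mixes it with variation between arrays. After centring on the mean of each experiment, the values of GRMZM2G044851 and GRMZM2G455124 had Pearson's r = 0.78 over the 24 arrays, and those of GRMZM2G161459 and GRMZM2G112154 had r = 0.69. Of the 28 pairs of members, 6 had r above 0.5 and 2 below -0.5. These arrays share treatments, slides and growth sets, so that r is a description. Among the 853 annotated transcripts that passed the filter, those most like GRMZM2G455124 were the nitrate reductase loci GRMZM2G142386 (r = 0.91) and GRMZM2G076723 (r = 0.90). The closest to GRMZM2G112154 were a glucose-6-phosphate 1-dehydrogenase, GRMZM2G177077 (r = 0.92), and uroporphyrin III methyltransferase of the nitrate reduction list, GRMZM2G000739 (r = 0.92), an enzyme that makes the precursor of the cofactor of nitrite reductase.

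For GRMZM2G044851 the closest were a subtilisin-related protease, GRMZM2G076417 (r = 0.95), and phosphofructokinase 3, GRMZM2G004932 (r = 0.92). GRMZM2G150468 was closest to a serine carboxypeptidase, GRMZM2G161696 (r = 0.94), and to a purple acid phosphatase, GRMZM2G434170 (r = 0.92), an enzyme class that frees phosphate from organic compounds. GRMZM2G161459 was closest to the phosphoenolpyruvate/phosphate translocator of the C4 shuttle, GRMZM2G066413 (r = 0.84), and to an alanine aminotransferase, GRMZM2G088064 (r = 0.81). The members that were called under no stress had a lower highest r. Since the difference between stress and control is part of r, this is not read as a trait of these members. The closest transcripts were a neutral/alkaline invertase, GRMZM2G136139 (r = 0.80), and a serine carboxypeptidase, GRMZM2G339091 (r = 0.79), for GRMZM2G137421. For GRMZM2G163494 they were a ribosomal protein of the L34e family, GRMZM2G379128 (r = 0.78), and a P-type ATPase, GRMZM2G060824 (r = 0.69). For GRMZM2G086496, over 23 arrays, they were a tryptophan synthase alpha chain, GRMZM2G046191 (r = 0.77), and an actin-related transcript, GRMZM2G404340 (r = 0.71).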

How the data were processed

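The arrays are of 1 colour, with 1 array per sample. The authors deposited scanner files with intensity values, which Feature Extraction (version 11.0.1.1 per the file headers, 11.7.1 per the submitters' processing notes) had background-corrected and detrended, and a table of log2 values, which the authors scaled to the 75th percentile and baseline corrected in GeneSpring. Columns that belong to no sample of the series numbered 0. Outlier-flagged spots were left out of the intensities, log2 was taken and the 75th percentile of each array over transcript probes was subtracted. A probe entered the tests if 1 or more of the 6 groups had it well above background on its 4 arrays. Tests were by limma (version 3.58.1, R 4.3.3, lmFit and eBayes), each stress on its own 8 arrays, with Benjamini-Hochberg adjustment over all 31507 probes. Control levels and interactions came from 1 fit over 24 arrays. Every p is from limma unless said otherwise. The fit was tested on simulated data, with values independent between arrays, unlike the real ones. Of simulated log2 changes of 1.5, 66.0%, 56.0% and 79.0% were called in the low T, low N and low P experiments. Of changes of 3.0, 93.0%, 84.0% and 92.0% were called. A change that was not called can therefore be a missed one.

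The members and lists were chosen with earlier results of these data known. By rule, all members are named, with values for the nitrate reduction transcripts called under every stress, the second probe of 1 locus, and the 2 other annotated transcripts with the highest r for each member. The mean signal was not in the files used here, so that the normexp alternative took the median signal. Other alternatives were quantile normalization, spike-in scaling over 10 spike-in probes or the 7 of them well above background on all arrays, the deposited table, 2 other filters, no fold limit, 1 fit over all arrays, replicate and slide blocks, and leaving out each array. Leaving out arrays for the interactions, and all alternatives for the control levels, were chosen after seeing the data. Same-numbered stress and control arrays deviated together in the low T (r = 0.19 to 0.42) and low N (r = 0.18 to 0.36) experiments, and were treated as pairs in the replicate block, although neither the labels nor the Methods state a pairing. Arrays of other numbers within replicates 1 and 2, or within 3 and 4, deviated together about as much (r = 0.17 to 0.42 and 0.11 to 0.35), so that the correlations do not single out the number. The number of arrays, 4 per group, limits the precision.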

Additional observations from a re-analysis of the deposited data

Results flagged for a closer look

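Of 47 combinations of a member and a group of 4 arrays, 2 held an array that stood far from the rest, by the gap to its neighbour over the range of the group (Dixon's test). Chance alone marks about 1 in 20 such groups. They were GRMZM2G161459 in control N (0.866), where replicate 2 was low, and GRMZM2G163494 in control N (0.892), where replicate 3 was low.

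The response of a member differed between stresses in 9 of 24 interaction contrasts, where 22.5%, 39.0% and 19.9% of all probes were called in low T minus low N, low T minus low P and low N minus low P. Low T minus low N was 1.75 for GRMZM2G112154, -0.90 for GRMZM2G137421 and -1.75 for GRMZM2G044851. Low T minus low P was 2.05 for GRMZM2G112154, -6.81 for GRMZM2G150468, -0.79 for GRMZM2G137421 and -0.97 for GRMZM2G455124. Low N minus low P was -4.59 for GRMZM2G150468 and -1.51 for GRMZM2G455124. With normexp the contrasts of GRMZM2G137421, GRMZM2G044851 and GRMZM2G455124 were no longer called, nor with spike-in scaling those of GRMZM2G137421 and GRMZM2G455124. The contrasts of GRMZM2G150468 with low T rest on a control T group that spanned -2.80 to 1.56.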

How the results depend on the processing

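The counts of called members were 2 under low T, 4 under low N and 3 under low P, with 14.4%, 5.80% and 11.2% of all probes called. They became 1 under low T with normexp (5.19% of all probes) and 1 under low N with either spike-in scaling (5.50% and 9.91%). Under low P they became 5 with no fold limit, where 41.1% of all probes were called. Without single arrays they ran from 2 to 3, from 2 to 4 (2 without low N replicate 1, with 3.77% of all probes) and from 3 to 4. With the replicate number as a block they were 2, 3 and 3 (15.2%, 7.03% and 10.8% of all probes). The block changed no call but that of GRMZM2G044851 under low N. In the low P experiment same-numbered arrays did not deviate together (r = -0.10 to 0.05), and no pairing is stated. No slide block was possible for low P.

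The sign turned for uncalled changes only. GRMZM2G086496 was at 0.18 under low T with spike-in scaling, and at -0.77 under low P in the deposited table, which holds the spot with the outlier flag. GRMZM2G150468 was at 0.18 and 0.22 under low N with the spike-in scalings, and GRMZM2G163494 under low N ran from -0.25 to 1.29 without single arrays.

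Spike-in scaling moved the median change of all probes by 0.44, 0.53 and 0.23 under low T, low N and low P, and its restricted form by 0.21, 0.57 and 0.52. The share of called probes that were higher went from 50.5%, 46.2% and 73.2% to 82.6%, 86.0% and 87.3%, and with the restricted form to 69.5%, 90.5% and 94.9%. Under low P it was 57.8% with quantile normalization (median moved by -0.13) and 63.0% with normexp (-0.25). All called probes were 4528, 1828 and 3537. They became 1635, 1181 and 1610 with normexp and 9783, 3493 and 12963 with no fold limit, and 3121 and 7061 under low N and low P with restricted spike-in scaling. Under low N they were 3355 with slide as a random block and 1188 and 1215 without low N replicate 1 or 2. The cause of these shifts was not tested. Dim signals limit the low T values of GRMZM2G044851 and GRMZM2G455124.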
